A study of Mus musculus with 2 samples.

Results

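Among the Epcam+ Ptprc- epithelial cells of the DoubleTg mouse prostate library, 504 of 8458 cells carried a very high level of probasin mRNA (Pbsn), which is 5.96% of these cells (95% exact binomial interval, 5.46 to 6.48%). The members were chosen by a rule on the matrix of unique molecular identifiers (UMIs, one per captured mRNA molecule): over 200 and under 7000 genes, under 15% mitochondrial UMIs, at least 1 Epcam UMI, 0 Ptprc UMIs, at least 50 Pbsn UMIs per 10,000 UMIs of the cell, and under 1000 UMIs of Sbp and Sbpl together per 10,000. The rule also takes 4.76% of all 10598 DoubleTg cells within the limits, in a series of 21564 cells. The cells are called Pbsn-high cells below, and the 7954 remaining Epcam+ Ptprc- cells of the library are the other epithelial cells.

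DoubleTg mice (hHGFtg-hMETtg-PBCre) carried a human HGF transgene expressed throughout the body and a human MET transgene behind a floxed stop cassette at the H11 locus, which PB-Cre4, a Cre recombinase under a modified rat probasin promoter, turns on in prostate epithelium. TripleTg mice (hHGFtg-hMETtg-Ctnnb1-PBCre) carried the same 3 elements and 1 floxed Ctnnb1 allele whose recombination removes exon 3 and leaves a stabilised β-catenin. The labels give the DoubleTg tissue as prostatic adenocarcinoma and the TripleTg tissue as prostatic carcinoma, the study's text also names intraepithelial neoplasia in the DoubleTg tissue, and the tissue was dissociated with collagenase and TrypLE, with dihydrotestosterone in the medium. Each genotype was 1 library made with 10x Genomics 3′ v3 chemistry, and the age and number of mice behind each are not given in the sources used here. No test between groups of cells is therefore given, and the intervals cover counting error only.

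The mouse prostate is a set of paired lobes whose luminal cells secrete different proteins into the seminal fluid in an androgen-dependent way. Probasin is a secreted lipocalin and a classical androgen-dependent product of dorsal and lateral lobe luminal cells, and its promoter is widely used to direct Cre to prostate epithelium. Tgm4 encodes the prostate transglutaminase, which cross-links seminal vesicle proteins in the copulatory plug, and Msmb encodes β-microseminoprotein, another lobe-restricted secreted protein.

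The sequences just upstream of the marker genes are shown because the rule and the Cre driver both rest on probasin expression. RefSeq windows of 250 bases before the start of the gene on GRCm38.p6 were searched on both strands for AGAACA, the half-site of the androgen and glucocorticoid response element, which is in 16% of 32536 windows of that length. Half-sites are in capitals. For Pbsn the single match began 95 bases before the RefSeq start (position -95), inside the longest GENCODE transcript, and is given with the bases around it at chrX:77853578-77853607, minus strand. The upstream stretch of Pbsn outside that transcript is chrX:77853624-77853750, that of Tgm4 is chr9:123034491-123034725, plus strand, and that of 9530053A07Rik is chr7:28129216-28129465, plus strand, with its match at position -183.
Pbsn half-site: caactgggatgcAGAACActgctcacgcca
Pbsn upstream: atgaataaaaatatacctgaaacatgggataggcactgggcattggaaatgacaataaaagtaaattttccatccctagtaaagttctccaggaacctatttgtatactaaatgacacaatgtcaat
Tgm4 upstream: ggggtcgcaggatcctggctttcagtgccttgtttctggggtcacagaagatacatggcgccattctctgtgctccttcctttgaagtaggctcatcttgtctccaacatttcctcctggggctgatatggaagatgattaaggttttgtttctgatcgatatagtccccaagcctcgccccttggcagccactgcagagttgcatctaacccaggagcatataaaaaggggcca
9530053A07Rik upstream: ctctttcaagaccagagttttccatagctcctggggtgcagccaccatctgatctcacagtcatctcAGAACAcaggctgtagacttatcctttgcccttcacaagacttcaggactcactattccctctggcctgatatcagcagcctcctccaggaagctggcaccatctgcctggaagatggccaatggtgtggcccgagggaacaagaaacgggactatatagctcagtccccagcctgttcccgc

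The Tgm4 window held no AGAACA. The full element, AGAACA and its reverse complement with 3 bases between them, was in none of these 3 windows and in 3 of the 32536.

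The Pbsn-high cells held 16422680 UMIs, with a median of 34582 per cell (503 to 113628) and a median of 4862.5 genes. The median was 21295 UMIs in the other epithelial cells together, and 103 Pbsn-high cells had under 5000 UMIs. Mitochondrial UMIs had a median of 2.61%. Of the 30 barcodes found in both libraries, 0 belonged to Pbsn-high cells. No doublet caller was run, and 421 barcodes were removed by the upper limit on genes. Free RNA was measured in the 336 Ptprc+ Epcam- DoubleTg cells, which should lack prostate secretory transcripts: 53.9% of them had a Pbsn UMI, at a median depth of 7676 UMIs, but 0 of 336 reached 50 per 10,000, which allows a share of up to 1.09%. The level used by the rule is thus above what free RNA gave in those cells.

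Among the Pbsn-high cells Pbsn ranged from 50.2 to 700 UMIs per 10,000, with a median of 118, and from 3 to 3126 UMIs in a cell. There was no gap in the level of Pbsn at the threshold. The 52 cells just inside it (50 to 60 per 10,000) had a median Tgm4 of 60.8 per 10,000 and a median 9530053A07Rik of 56.9, and the 73 epithelial cells just outside (40 to 50) had 21.3 and 23.1. Median Clu, the secreted chaperone clusterin, was 46.7 just inside and 77.2 just outside.

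The marker genes were chosen with the cells and their levels are given as a description. As summed UMIs per 1000000 UMIs of the group (CPM), Pbsn was at 15661 in Pbsn-high cells and 325 in the other epithelial cells. Tgm4 was at 10115 against 456, 9530053A07Rik at 20896 against 693, and Gsdma, a pore-forming gasdermin, at 295 against 13.4. In Ptprc+ Epcam- cells these genes stood at 94.8, 56.4, 81.0 and 2.70 CPM. The 637 epithelial cells with Sbp and Sbpl at 1000 or more per 10,000 had Tgm4 at 46.7 CPM. Their median depth was 55586 UMIs, against 7676 in Ptprc+ Epcam- cells. Tgm4 reached 10 per 10,000 in 10 of these 637 cells and in 1 of the 336 Ptprc+ Epcam- cells. How much of it was free RNA was not tested. The genes are at chrX:77837901-77853623 (Pbsn, ENSMUSG00000000003), chr9:123034726-123067561 (Tgm4, ENSMUSG00000025787), chr7:28129466-28164811 (9530053A07Rik, ENSMUSG00000078776) and chr11:98664351-98677708 (Gsdma, ENSMUSG00000017204) on GRCm38.

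Not every Pbsn-high cell carried the other markers. At 10 UMIs per 10,000 or more, Tgm4 was found in 387 cells (76.8%) and 9530053A07Rik in 386 cells, 370 cells had both, and 101 had neither. Nor were these genes confined to Pbsn-high cells: of 1180 epithelial cells with Tgm4 at that level, 32.8% were Pbsn-high (30.1 to 35.6%), and the other 793 had a median Pbsn of 5.12 per 10,000. Gsdma at 1 or more per 10,000 marked 561 epithelial cells, of which 51.7% were Pbsn-high.

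The cells without Tgm4 were mostly rich in Msmb. After these values were seen, the Pbsn-high cells were divided into 387 with Tgm4 at 10 or more per 10,000 (Tgm4-rich), 109 with Tgm4 under 10 and Msmb at 100 or more (Msmb-rich, 21.6%) and 8 with neither. Only 10 of the Tgm4-rich cells also had Msmb at 100 or more. The median Tgm4 was 130 per 10,000 in Tgm4-rich cells and 0.138 in Msmb-rich cells, and the median Msmb 1.23 and 405. Pbsn itself overlapped widely, with medians of 127 and 95.1 and ranges of 50.2 to 700 and 50.3 to 472. The name "dorsal-type" therefore describes at most the Tgm4-rich majority, and the labels give no lobe for any cell.

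**Figure D1:**
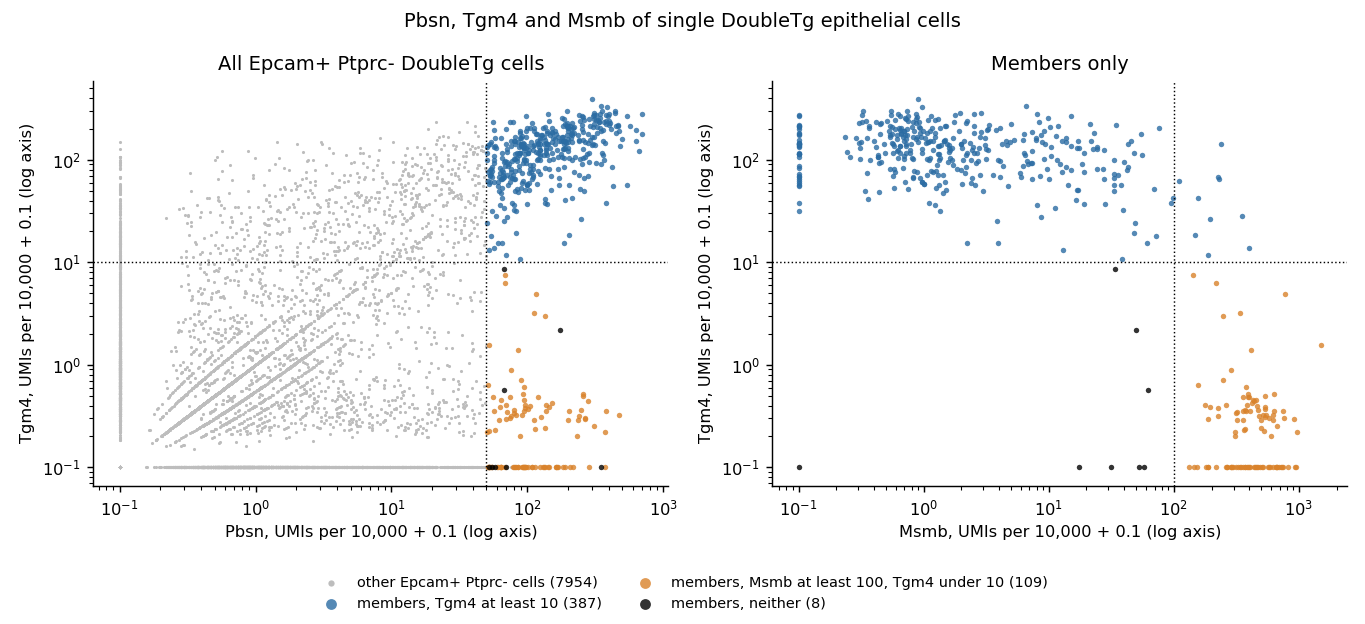
Each point is 1 DoubleTg Epcam+ Ptprc- cell, with UMIs per 10,000 plus 0.1 on log axes: Tgm4 against Pbsn for all 8458 cells (left) and Tgm4 against Msmb for the 504 Pbsn-high cells (right), with dotted lines at the thresholds. On the right the 387 Tgm4-rich cells and the 109 Msmb-rich cells lie in opposite corners, and 10 cells pass both thresholds.

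Of 8577 genes that reached 5 CPM on at least 1 side, 639 (7.45%) had a log2 ratio of at least 1 in Tgm4-rich over Msmb-rich cells and 348 (4.06%) of -1 or less, with a median of 0.24 over all of them. These are descriptions of the same cells that the division used. In Tgm4-rich cells 9530053A07Rik was at 29297 CPM against 187 in Msmb-rich cells (log2 ratio 7.29, interval 7.20 to 7.39), Gsdma at 409 against 15.1 (4.76, 4.42 to 5.12), and A630095E13Rik at 1584 against 3.23 (8.94, 8.21 to 9.77). The non-coding Gm37223 stood at 302 against 0.431 CPM, which is 2 UMIs counted as 3 (8.87, 7.32 to 11.1). All 4 were thus far lower in the Msmb-rich cells. Their 9530053A07Rik was above the 81.0 CPM of Ptprc+ Epcam- cells and lay in few of them, since 12 of the 109 had 10 or more per 10,000 and the median was 0.284. C1rb and C1s2, which encode proteases of the complement C1r and C1s families, were at 900 and 326 CPM in Tgm4-rich cells and at 4.31 and 1.73 in Msmb-rich cells. Both have close paralogues, between which reads may be divided. Tcaf3, a TRP channel-associated factor gene, stood at 169 against 0.647, and the IGF-binding protein gene Igfbp5 at 268 against 5.39.

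Chac1, Trib3, Asns and Atf3, genes known to be induced when ATF4 is active, were singled out after their values were seen. Chac1, which encodes a glutathione-degrading enzyme, was at 155 CPM in Tgm4-rich and 3.02 in Msmb-rich cells (5.68, 4.93 to 6.56), Trib3, a pseudokinase gene, at 28.7 against 3.67 (2.97, 2.27 to 3.77), Asns, asparagine synthetase, at 180 against 38.0 (2.25, 2.02 to 2.48), and Atf3, a stress transcription factor gene, at 1595 against 520 (1.62, 1.56 to 1.68). Atf4 itself was at 692 against 388 (0.83, 0.76 to 0.91), and Ddit3, another stress transcription factor gene, at 55.5 against 24.4 (1.19, 0.90 to 1.49). The median of 0.24 over all genes is on this side too.

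Msmb-rich cells held more of several secreted and transport genes. Msmb was at 45956 CPM against 1311 in Tgm4-rich cells, and Defb50, a β-defensin gene, at 73125 against 11511 (log2 ratio of Tgm4-rich over Msmb-rich -2.67). Wfdc3, a WAP-domain gene, stood at 1177 against 17.4 (-6.08), Reg3b and Reg3g, which encode antimicrobial lectins, at 370 and 496 against 8.82 and 38.7, and Slc12a2, the sodium-potassium-chloride cotransporter gene, at 1775 against 190 (-3.23). Defb50 was thus abundant in both kinds of cell, and the other genes named here were lower in Tgm4-rich cells. Fkbp5, an androgen- and glucocorticoid-induced gene, was at 55.6 CPM in Msmb-rich and 23.5 in Tgm4-rich cells (-1.24, -1.50 to -0.99), whereas Tmprss2, an androgen-regulated serine protease gene, was at 34.5 in Msmb-rich and 135 in Tgm4-rich cells (1.97, 1.73 to 2.21).

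**Figure D2:**
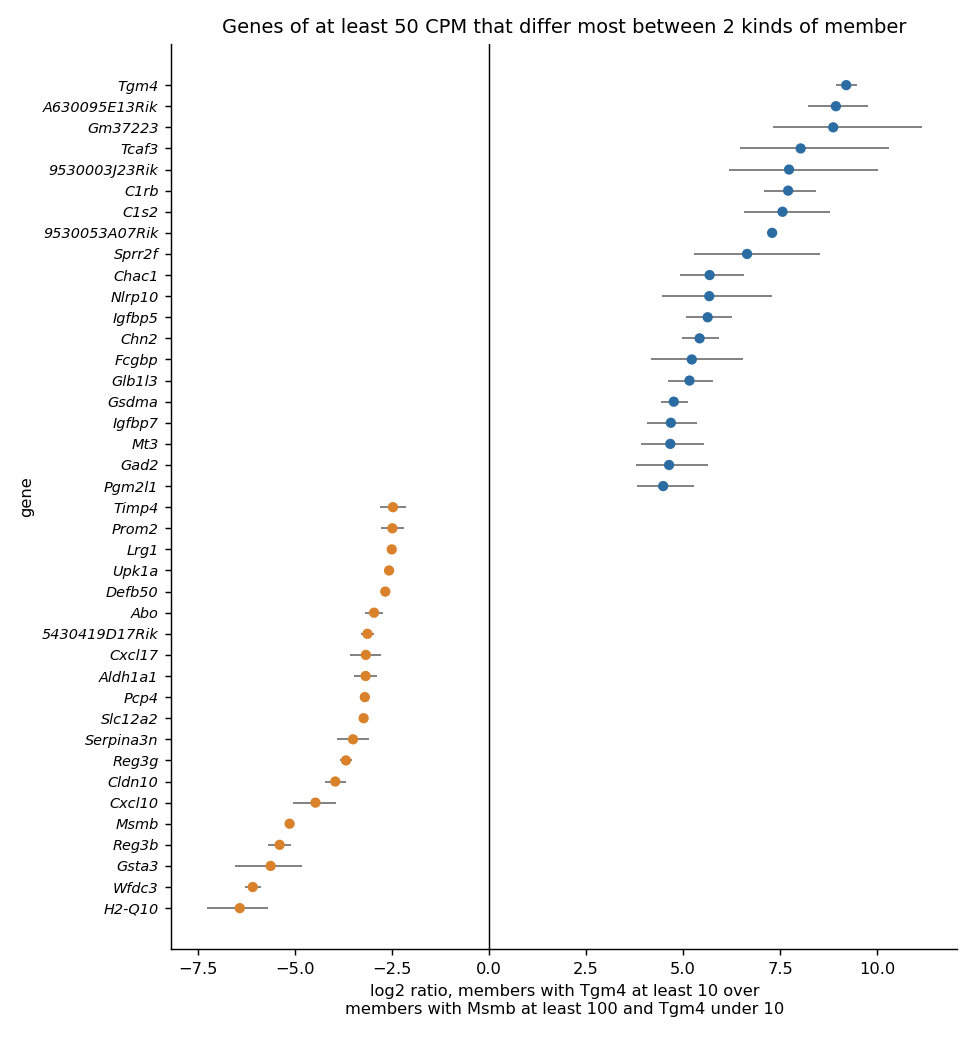
Log2 ratio of summed CPM in Tgm4-rich over Msmb-rich Pbsn-high cells for the 20 genes with the most extreme ratios on each side among those of at least 50 CPM in either kind of cell, with 95% intervals of counting error as lines. Tgm4, at 9.20, and 9530053A07Rik lie at one end, and Msmb, at -5.13, Wfdc3 and H2-Q10, at -6.41, at the other.

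Across the 401 Pbsn-high cells with at least 5000 UMIs, each thinned to 5000, Spearman coefficients with Pbsn were computed as a description for 4555 genes. The highest were those of Prdx6, a peroxiredoxin gene (0.46), Tgm4 (0.46), 9530053A07Rik (0.44), 9530002B09Rik (0.43), Gm5615 (0.43), Gm37223 (0.40), Atf3 (0.38), Asns (0.35), Tcaf3 (0.35) and Fgl1, a fibrinogen-like gene (0.33). The lowest were Clu (-0.57), Fxyd3, an ion-pump regulator gene (-0.57), S100a11 (-0.52), Ly6e (-0.47) and S100a10 (-0.46). Tgm4 and 9530053A07Rik had a coefficient of 0.84 with each other, and Tgm4 had -0.66 with Msmb. All points come from 1 library at 1 depth, and each level is a share of the cell's UMIs. The 4 markers together took a median of 2.21% of UMIs at Pbsn 50 to 100 per 10,000 and 8.71% at 200 and above.

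Against the other epithelial cells, 8980 genes that reached 5 CPM on at least 1 side were compared. With 1 library, higher and lower mean a log2 ratio of at least 1 in size: 365 genes (4.06%) were higher in Pbsn-high cells and 890 genes (9.91%) lower, with a median of 0.01. The others are a mix of cells, and 2 groups of secretory cells among them are set beside the gene lists below: the 637 Sbp-high cells, with Sbp and Sbpl at 1000 or more per 10,000, against which the median over all genes was 0.80, and 805 Msmb-high cells, with Pbsn under 50 and Msmb at 100 or more per 10,000, against which it was 0.02. Of all genes, 34.6% were higher and 2.97% lower than in Sbp-high cells, and 3.87% and 5.08% than in Msmb-high cells. The median depths of these 2 groups were 55586 and 36072 UMIs. Among genes of at least 50 CPM, the highest ratio over the other epithelial cells was that of Gm37223, at 215 against 1.46 CPM (7.20, 7.04 to 7.37). It was followed, besides the 4 markers, by A630095E13Rik (1127 against 26.5, 5.41), Fgl1 (197 against 6.41, 4.94), 9530003J23Rik (97.6 against 3.57, 4.77), Chn2, a Rac GTPase-activating protein gene (246 against 11.3, 4.44), Mt3, a metallothionein gene (55.7 against 2.62, 4.41), C1s2 (232 against 11.1, 4.39), Glb1l3, a galactosidase-like gene (150 against 7.41, 4.34) and C1rb (641 against 36.6, 4.13). Pcp4, a calmodulin-binding peptide gene, was at 172 against 14.2 (3.60) and Pgm2l1 at 59.5 against 5.37 (3.47). Within the Pbsn-high cells Pcp4 was the exception among these, at 51.7 CPM in Tgm4-rich and 473 in Msmb-rich cells.

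By level, the Pbsn-high cells were led by Defb50 (28997 CPM against 9270 in the other epithelial cells), 9530053A07Rik, Pbsn, Msmb (13940 against 3670) and Tgm4. The Msmb excess came from the Msmb-rich cells, since with Tgm4-rich cells alone the log2 ratio of Msmb was -1.48 in place of 1.93. Of 7 secretory markers linked to other lobes 4 were higher and 3 lower, with Apof, an apolipoprotein gene, at 345 against 92.8 (1.89) among the higher and Sbp, Sbpl and Spink1 as the lower. Prdx6 was also among the 10 most abundant, at 7190 against 1117 CPM (2.69, 2.68 to 2.70), and its median was 64.4 per 10,000 in Pbsn-high cells and 5.67 in the others. These are UMIs at transcript ends and are not divided by gene length.

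**Figure D3:**
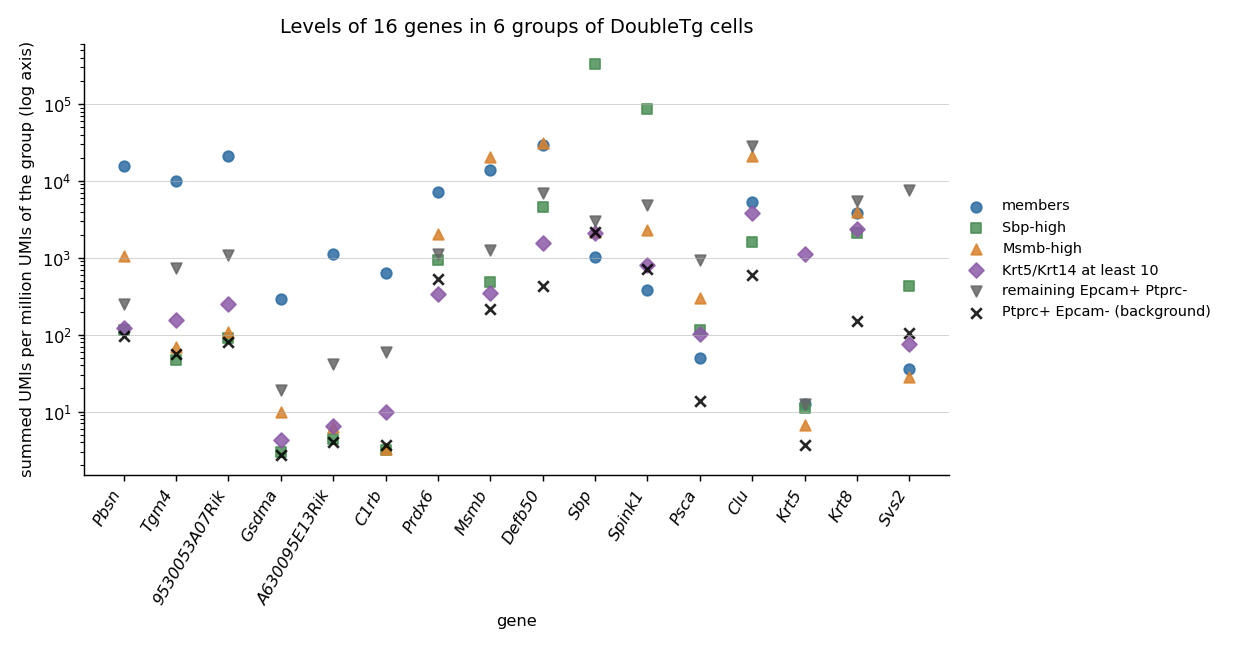
Summed CPM of 16 genes on a log axis in the Pbsn-high cells (members), 4 other groups of DoubleTg epithelial cells and the Ptprc+ Epcam- cells (crosses), which give the level of free RNA. Pbsn, Tgm4, 9530053A07Rik, Gsdma, A630095E13Rik, C1rb and Prdx6 are highest in the Pbsn-high cells, whereas their Sbp, Spink1 and Svs2 lie below the crosses.

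Among genes of at least 50 CPM, the lowest ratios included haemoglobin, seminal vesicle and Sbp-type secretory genes. Svs2, a seminal vesicle secretory gene, was at 35.6 CPM against 4466 (-6.97), Hbb-bs, a haemoglobin gene, at 1.10 against 187 (-7.42) and Pate4 at 7.37 against 807 (-6.77). Sbp, the spermine-binding protein gene that the rule kept low, was at 1038 against 54573 (-5.72) and Spink1, a trypsin inhibitor gene, at 378 against 16661 (-5.46). In Ptprc+ Epcam- cells Sbp stood at 2163, Spink1 at 717 and Svs2 at 106 CPM, so the summed CPM of Pbsn-high cells was lower for all 3. The median depths were 7676 UMIs in Ptprc+ Epcam- and 34582 in Pbsn-high cells. The 90th percentile of Sbp was 44.2 per 10,000 in Ptprc+ Epcam- and 130 in Pbsn-high cells. Some Pbsn-high cells thus held a larger share of Sbp than most Ptprc+ Epcam- cells. Few of the other epithelial cells carried most of the Svs2 and Hbb-bs: the median Svs2 was 0.238 per 10,000 in Pbsn-high cells and 0.287 in the others, whose highest cell had 3944, and 62.3% and 61.6% had a UMI of it. For Hbb-bs the shares with a UMI were 3.37% and 3.67%, and for Pate4 20.2% and 20.4%.

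The Pbsn-high cells carried the general luminal genes at the level of their neighbours. Of 11 luminal epithelial markers 1 was higher and 0 lower, with a median log2 ratio of -0.07. Krt8, a luminal keratin gene, was at 3872 against 4348 CPM and Hoxb13, a prostate homeobox gene, at 159 against 105 (0.60).

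Markers of the proximal prostate ducts, where luminal cells are less secretory, were lower than in the other epithelial cells together. All 9 of the list were lower, with a median of -2.30, and 8 of 9 were lower than in Msmb-high cells (median -2.21). Against Sbp-high cells 2 were higher and 2 lower (median -0.05), where 34.6% and 2.97% of all genes were, with a median of 0.80. The summed list had a median of 23.2 per 10,000 in Pbsn-high, 8.43 in Sbp-high and 182 in Msmb-high cells. Psca, a cell surface antigen gene, was at 49.99 against 601 CPM (-3.59), Wfdc2 at 57.2 against 705 (-3.62), Krt7 at 36.6 against 299 (-3.03), Krt4 at 11.7 against 79.5 (-2.76) and Clu at 5364 against 19992 (-1.90). Between Tgm4-rich and Msmb-rich cells these markers went both ways. Cldn10, a claudin gene, was at 11.5 CPM in Tgm4-rich and 178 in Msmb-rich cells (-3.96, -4.23 to -3.69) and Ppp1r1b at 4.63 and 22.6 (-2.29), whereas Ly6d was at 54.7 and 6.47 (3.08, 2.55 to 3.66) and Krt7 at 41.4 and 23.9 (0.79). The log2 ratio of Clu was -0.45, and those of Psca, Krt4 and Wfdc2 were 0.11, 0.08 and 0.11.

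Of 7 basal markers described out of 8, 6 were lower (median -2.92), with Krt5 at 12.4 against 157 CPM (-3.66). Those ratios came from the basal cells among the others: without the 1870 cells rich in Krt5 or Krt14 the median was 0.29. Against Msmb-high cells 5 of 7 basal markers described were higher (median 1.16), where 3.87% of all genes were. Against Sbp-high cells 4 of 7 were higher (median 1.18), where 34.6% of all genes were. Fibroblast markers were lower for 5 of 5 described, at a summed 56.8 against 359 CPM. Their summed level had a median of 10.46 per 10,000 in the cells rich in Krt5 or Krt14 and 0 in Pbsn-high cells, and without the former among the others the list's median log2 ratio was -2.20 in place of -2.71. Endothelial markers were lower for 2 of 2. The 10 immune markers summed to 7.55 CPM in Pbsn-high cells, 26.3 in the other epithelial cells and 6166 in Ptprc+ Epcam- cells, and Ptprc was 0 by the rule. Seminal vesicle markers summed to 73.3 CPM against 8525, with 5 of 9 at 0. Smooth muscle markers were lower for 3 of 3 described, urothelial markers for 0 of 3, and the 6 neuroendocrine markers summed to 0.304 CPM. Against Msmb-high cells 2 of 2 smooth muscle markers described were higher, with the list at a summed 20.8 against 5.53 CPM. Against Sbp-high cells 0 of 2 were higher or lower. In Ptprc+ Epcam- cells the fibroblast list summed to 191 CPM, against 56.8 in Pbsn-high cells, the smooth muscle list to 179 against 20.8 and the endothelial list to 23.3 against 1.83. All 3 were thus lower in the Pbsn-high cells as CPM. Median depths were 7676 UMIs in Ptprc+ Epcam- and 34582 in Pbsn-high cells, and UMIs per cell were not compared.

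Androgen-regulated genes did not share 1 direction. Of 20, 6 were higher and 6 lower, with a median of -0.15. Besides Pbsn and Msmb, the higher ones included Tmprss2 (106 against 51.1 CPM, 1.05), Azgp1, a zinc-binding glycoprotein gene (570 against 215, 1.41), and Hpgd, which encodes a prostaglandin-degrading enzyme (62.8 against 20.9, 1.59). The lower ones included Sbp, Spink1, Steap4, a metalloreductase gene (-2.30), Tsc22d3, a glucocorticoid-induced gene (-1.83), and Ndrg1 (-1.80). Fkbp5 was at 32.8 against 50.5 CPM (-0.63). Sbp and Pbsn were both used by the rule.

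Of 19 epithelial transcription factor genes described, 2 were higher, among them Gata3, at 150 against 63.9 CPM (1.23, 1.17 to 1.29). Hoxd13 (-1.92), Hoxa13 (-1.37), Runx1 (-1.27) and Sox4 (-1.20) were lower. Gata3 was at 180 CPM in Tgm4-rich cells and 76.3 in Msmb-rich cells.

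Genes for folding and export of secreted proteins in the endoplasmic reticulum (ER) were shifted upward against the other epithelial cells together, but not against the Msmb-high cells among them, where 1 of 36 was higher and the median was 0.06. Against all the others, of 36 described 7 were higher and 0 lower, with a median of 0.49 beside 0.01 over all genes. They were Tmed3, a cargo transport gene (845 against 326 CPM, 1.37), Agr2, a protein disulphide isomerase gene (1248 against 491, 1.35), Sdf2l1 (1.17), Creld2 (1.14), Pdia4 (1.12), Pdia6 (1.05) and Ssr4 (1.03). Hspa5, the main ER chaperone gene, was at 3513 against 2647 (0.41).

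Chemokine and cytokine genes were lower than in the other epithelial cells together. Of 17 described, 16 were lower and 0 higher, with a median of -2.47. Ccl2, a monocyte attractant gene, was at 1.04 against 29.5 CPM (-4.83, -5.61 to -4.15) and Cxcl1, a neutrophil attractant gene, at 17.2 against 83.1 (-2.27, -2.45 to -2.11). Nfkbia, the NF-κB inhibitor gene that NF-κB itself induces, was at 170 against 521 (-1.61). Ccl20 (5 UMIs) and Cxcl5 (4 UMIs) were close to 0. In Ptprc+ Epcam- cells the list summed to 16290 CPM, against 338 in Pbsn-high and 1184 in the other epithelial cells, and the part of such cells in the difference was not tested. It summed to 567 CPM in Sbp-high and 562 in Msmb-high cells, with 4 of 8 and 5 of 10 genes lower in Pbsn-high cells (medians -0.93 and -0.95). Of all genes 2.97% and 5.08% were lower in these 2 comparisons.

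Mucosal defence genes were lower than in the other epithelial cells for 9 of 11 described (median -2.28). Against Msmb-high cells 4 of 8 were lower and 0 higher (median -1.16), where 5.08% and 3.87% of all genes were. Against Sbp-high cells 5 of 8 were higher and 2 lower (median 1.30), where 34.6% and 2.97% of all genes were. Lcn2, a siderophore-binding lipocalin gene, was at 46.0 against 230 CPM (-2.32), Pigr, the polymeric immunoglobulin receptor gene, at a log2 ratio of -1.23, Spink5 at 84.3 against 1128 (-3.74; -0.28 against Msmb-high cells), Ltf, lactoferrin, at 0.792 against 12.9 (-4.03) and C3, complement component 3, at 0.609 against 7.85 (-3.69). Defb1, another β-defensin gene, was the exception at 2132 against 520 (2.03, 2.02 to 2.05), and it was at 4295 CPM in Msmb-rich and 1279 in Tgm4-rich cells.

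Interferon and MHC genes were lower for 5 of 17 (median -0.55), among them Irf1 (-1.70), Ifit1 (-1.42) and H2-Eb1 (-1.18), while B2m, the light chain of MHC class I, was at 0.34. Against Msmb-high cells 4 of 16 were higher and 0 lower (median -0.27), beside 3.87% higher and a median of 0.02 over all genes. Against Sbp-high cells 4 of 16 were also higher and 0 lower (median 0.45), but there 34.6% of all genes were higher, with a median of 0.80. Immediate early and stress genes were lower for 4 of 17 (median -0.48), with Ier3 at -1.62 and Dusp1 at -1.52, and 0 were higher, Atf3 lying just under the fold at 0.99. Against Msmb-high cells 1 was higher and 2 lower (median -0.42), where 3.87% and 5.08% of all genes were. Against Sbp-high cells 2 were higher and 0 lower (median 0.00), where 34.6% and 2.97% of all genes were, with a median of 0.80.

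Metabolic lists were mostly level. Oxidative phosphorylation genes had 1 higher of 33 (median 0.19), and ribosomal protein genes 0 of 83 in either direction (0.02). No gene passed the fold among 10 polyamine genes and 19 nuclear export and translation genes, with Xpo1, the exportin 1 gene, at 8.16 against 9.18 CPM. Cholesterol and fatty acid synthesis genes had 2 lower of 23 and 0 higher (median -0.15). In the zinc and citrate list 1 of 18 was lower, Slc39a4, a zinc importer gene, at 8.83 against 18.0 CPM (-1.03), and 1 was higher, Slc30a2, a zinc exporter gene, at 43.1 against 4.53 CPM (3.25, 3.11 to 3.39). Glycolysis and hypoxia genes had 5 lower of 19 (median -0.49), among them Egln3 (-2.44), Adm (-1.98) and Pfkp (-1.58), but 1 lower of 17 against Msmb-high cells (median -0.26). In the antioxidant list Prdx6 and Gpx3, a secreted glutathione peroxidase gene (464 against 212, 1.13), were higher, whereas Nupr1, a stress-induced chromatin factor gene (89.2 against 1356, -3.93), and Gpx2 (11.6 against 56.3, -2.28) were lower.

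**Figure D4:**
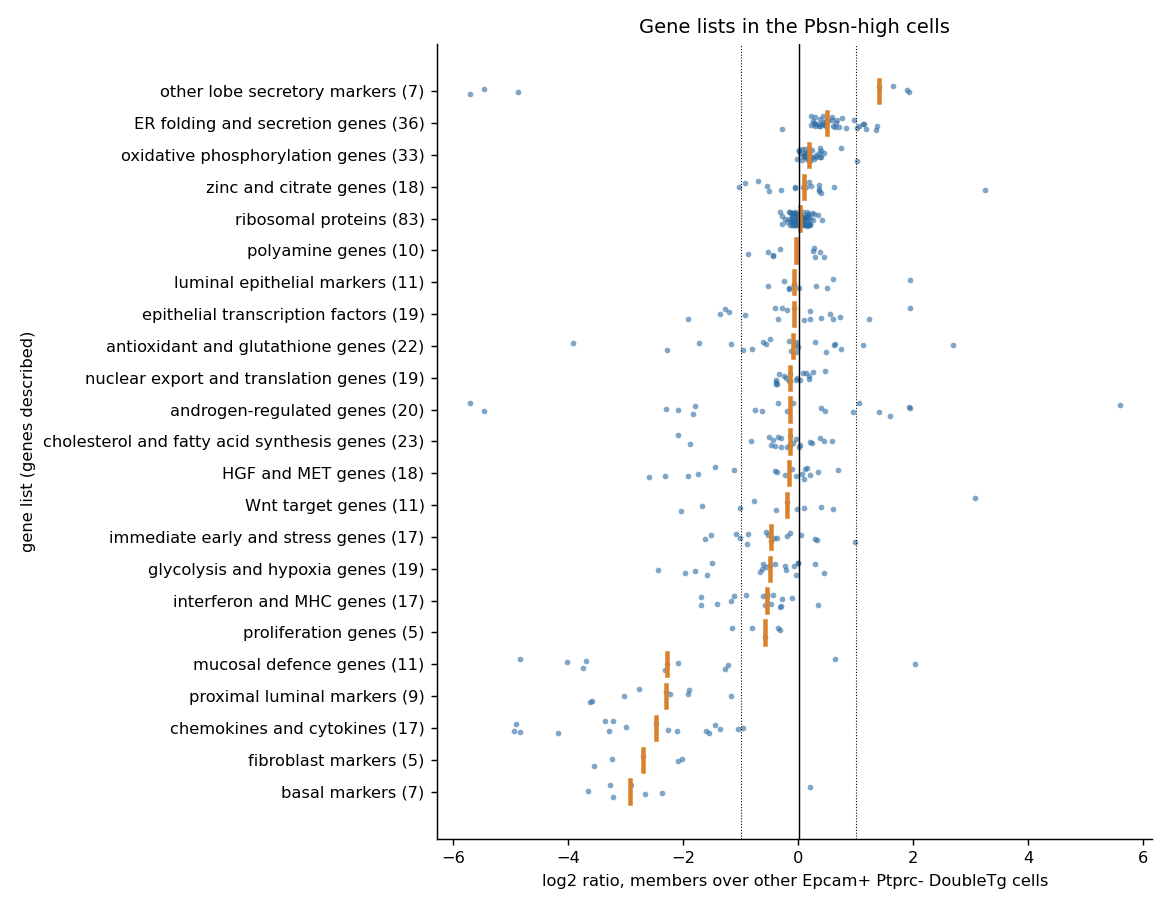
Each point is 1 gene, at its log2 ratio of Pbsn-high over other epithelial cells, for the 23 lists with 5 or more genes described, apart from the 4 markers of the cells; orange bars are list medians and dotted lines mark the fold of 1. Basal, fibroblast, chemokine, proximal luminal and mucosal defence genes lie mostly left of -1, and ER genes mostly right of 0.

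Few Pbsn-high cells carried proliferation genes, and most Wnt target genes were within the fold. At 5000 UMIs, 2 of 401 cells had at least 3 of 15 proliferation genes (0.499%, 0.0605 to 1.79%), against 83 of 6814 other epithelial cells (1.22%, 0.971 to 1.51%), and these intervals overlap. The share was as low in the other secretory groups, at 0.419% in Msmb-high and 0.182% in Sbp-high cells. Of 11 Wnt target genes described, 1 was higher and 3 lower, with a median of -0.21. The higher one was Nkd1, a feedback inhibitor gene of the pathway, at 10.05 against 1.20 CPM (3.07, 2.78 to 3.35), and it came from Tgm4-rich cells (14.1 CPM against 1 UMI in Msmb-rich cells). Ccnd1, cyclin D1, was at 24.0 against 98.9 (-2.04). Mmp7, a matrix metalloproteinase gene and Wnt target, was at 5127 against 3904 (0.39).

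The Cre that turns on hMETtg is driven by a probasin promoter, so the transgenes were compared with Pbsn. In Pbsn-high cells hMETtg was at 323 CPM and in the other epithelial cells at 425 (-0.40, -0.44 to -0.36). An hMETtg UMI was found in 60.1% of Pbsn-high cells (55.7 to 64.4%), and at 5000 UMIs in 50.1% (45.1 to 55.1%), beside 48.7% of the other epithelial cells (47.5 to 49.9%). The latter share is a mix: it was 9.68% (8.34 to 11.2%) in the cells rich in Krt5 or Krt14 and 63.8% (62.2 to 65.3%) in the 3792 cells that were neither these nor rich in Sbp or Msmb. In Ptprc+ Epcam- cells the share was 7.55% at 5000 UMIs (4.74 to 11.3%). The share in Pbsn-high cells was therefore above free RNA, above that of the Krt5 or Krt14 cells and below that of the largest group of other epithelial cells.

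Among the Pbsn-high cells the share with hMETtg went down as Pbsn went up. At 5000 UMIs it was 67.3% at Pbsn 50 to 100 per 10,000 (59.6 to 74.3%), 45.3% at 100 to 200 (36.5 to 54.4%) and 28.6% at 200 and above (20.2 to 38.2%). In other epithelial cells low in Sbp it was 46.5% at Pbsn under 1 (45.0 to 48.1%), 49.3% at 1 to 5, 68.6% at 5 to 20 (64.3 to 72.7%) and 66.2% at 20 to 50. The first 2 of these bins hold most of the cells rich in Krt5 or Krt14, of which 9.68% had hMETtg. Since Pbsn also chose the Pbsn-high cells and all cells are of 1 library, these shares are a description with no test. Summed hMETtg was at 429, 295 and 173 CPM over the 3 bins of Pbsn-high cells.

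The other receptor and ligand genes showed less of this. The share with mouse Met, the endogenous receptor gene, was 33.3%, 35.2% and 23.8% in those 3 bins, and that with hHGFtg 45.8%, 43.0% and 31.4%. The bins also differed in kind, since the share of Tgm4-rich cells was 69.2%, 79.4% and 85.9%. Their median depths were 33110, 36270 and 37070 UMIs. The part of these differences, and of the 4 markers' growing share of UMIs, in the lower hMETtg was not tested.

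Between Tgm4-rich and Msmb-rich cells the summed level of hMETtg was the same within counting error, at 323 CPM in both (log2 ratio 0.00, -0.09 to 0.09), but not the share of cells with it. An hMETtg UMI was found in 55.6% of Tgm4-rich cells (50.4 to 60.6%) and 78.9% of Msmb-rich cells (70.0 to 86.1%), at median depths of 33183 and 40919 UMIs, and the median level was 0.676 and 1.79 per 10,000. At 5000 UMIs the shares were 47.2% (41.4 to 53.0%) and 59.4% (48.9 to 69.3%), whose intervals overlap. By contrast hHGFtg was at 222 CPM in Tgm4-rich and 780 in Msmb-rich cells (-1.81, -1.89 to -1.74), and the mouse Hgf at 29.4 and 126 (-2.10, -2.30 to -1.91). Of 18 HGF and MET genes described, 6 were lower in Pbsn-high than in other epithelial cells and 0 higher (median -0.17). They were Spry1 (1.28 against 7.69 CPM, -2.59), Dusp4 (-2.31), Spry4 (-1.92), Hgfac, an HGF-activating protease gene (-1.75), Dusp6 (43.8 against 120, -1.45) and Phlda1 (-1.12). Spry and Dusp genes encode feedback inhibitors that receptor signalling through ERK induces.

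**Figure D5:**
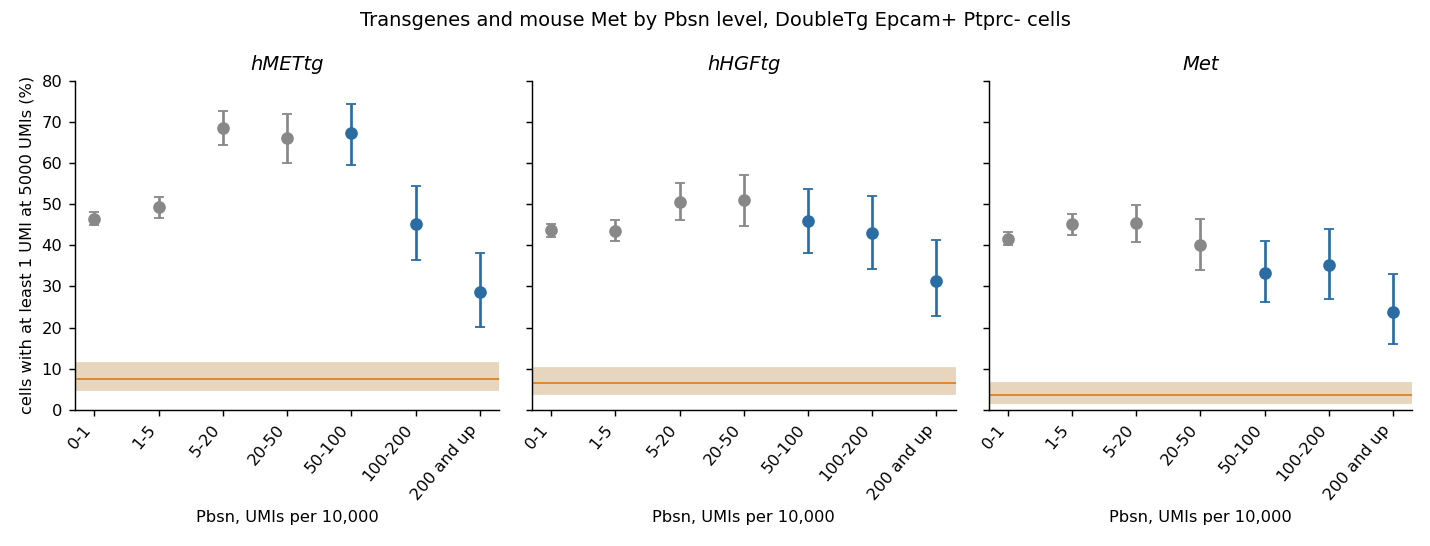
Share of DoubleTg Epcam+ Ptprc- cells low in Sbp with at least 1 UMI of hMETtg, hHGFtg or mouse Met after thinning to 5000 UMIs, by Pbsn level, with 95% exact binomial intervals; blue points are the Pbsn-high cells, and the orange line and band the Ptprc+ Epcam- cells and their interval. The hMETtg share lies between 66.2% and 68.6% from 5 to 100 per 10,000 and at 28.6% at 200 and above.

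The Pbsn-high cells were also compared with 2 other groups of secretory cells. Sbp-high cells spent much of their RNA on Sbp, at 336500 CPM. Against them 34.6% of 8442 genes were higher in Pbsn-high cells and 2.97% lower, with a median of 0.80, so values below are read against that shift. ER genes were higher for 25 of 37 and 1 was lower (median 1.25), Wnt target genes higher for 8 of 10 (median 1.51), and HGF and MET genes for 12 of 15 (median 1.39). 9530003J23Rik (log2 ratio 10.13), Gm37223 (8.85), Glb1l3 (8.64), A630095E13Rik (8.02) and 9530053A07Rik (7.87) had the highest ratios, and Sbp (-8.34), Spink1 (-7.84), Crabp1 (-8.42), Caln1 (-8.07) and Ibsp (-9.65) the lowest.

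The 805 Msmb-high cells differed at fewer genes than the Sbp-high cells did: 3.87% of 8677 genes were higher in Pbsn-high cells and 5.08% lower, with a median of 0.02. Pbsn was at 1069 CPM in them. Cholesterol and fatty acid synthesis genes were lower in Pbsn-high cells for 6 of 22 (median -0.61), and the HGF and MET genes for 5 of 17 (median -0.09). The highest ratios were those of Gm37223 (10.11), 9530003J23Rik (9.97), C1rb (7.62), 9530053A07Rik (7.57) and C1s2 (7.52), and the lowest those of Pglyrp1 (-3.34), Cbr2 (-3.16), Nupr1 (-2.89), Cyp2b10 (-2.82) and Wfdc2 (-2.82). An hMETtg UMI was found in 73.3% of Msmb-high cells at 5000 UMIs (69.9 to 76.5%) and in 36.9% of Sbp-high cells (32.9 to 41.1%), with the 50.1% of Pbsn-high cells between them.

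In the TripleTg library the same rule found 2 of 7687 Epcam+ Ptprc- cells (0.0260%, 0.00315 to 0.0940%). One of them had 518 Pbsn, 414 Tgm4, 585 9530053A07Rik and 12 Gsdma UMIs among 42471, and the other 112, 73, 43 and 0 among 20051. Both had 0 UMIs of Msmb, Sbp and hMETtg, and neither barcode was in both libraries. At a lower level of 5 Pbsn per 10,000 there were 7 TripleTg cells (0.0911%), against 1701 DoubleTg cells (20.1%). Genotype, animal, tissue piece and library cannot be told apart here.

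The genes that marked the Pbsn-high cells did not share 1 direction between the libraries. Over all Epcam+ Ptprc- cells Pbsn was at 4.16 CPM in TripleTg and 1382 in DoubleTg (log2 ratio -8.38), 9530053A07Rik at 27.3 and 2086 (-6.25), Tgm4 at 104 and 1122 (-3.43) and Pcp4 at 0.378 and 25.02 (-6.05). Gsdma, by contrast, was at 77.8 and 32.8 (1.25), A630095E13Rik at 659 and 102 (2.69) and 9530003J23Rik at 237 and 10.1 (4.56), and C1rb at 76.1 and 78.3 (-0.04). In TripleTg, Gsdma had a UMI in 41.9% of these cells and in 5.22% of Ptprc+ Epcam- cells. The shares were 40.6% and 3.48% for C1rb and 17.6% and 6.09% for 9530003J23Rik. For A630095E13Rik they were closer, at 29.3% and 18.7%, with levels of 659 and 24.9 CPM. These genes were thus expressed there in epithelial cells with almost no Pbsn.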

How the data were processed

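The authors deposited 1 matrix of raw UMI counts per library, which Cell Ranger counted on mm10 plus the hMETtg and hHGFtg sequences. The submitters' processing notes name release 6.0.2 and the DoubleTg header names 6.1.1. The limits on genes and mitochondrial UMIs left 10598 of 12072 DoubleTg barcodes (71 few genes, 421 many genes, 1042 mitochondrial, some under more than 1) and all 9492 TripleTg cells. The authors state fewer DoubleTg cells both before and after the same limits. The reason is not given in the sources used here, so cells they left out are counted here and in every share.

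Counts were summed per group of cells and divided by the group's total to give CPM, with sums under 3 set to 3 in ratios. Intervals (95%) are exact Poisson or Clopper-Pearson, and conditional binomial for ratios. Cells were thinned to 5000 UMIs, which left out 2171 DoubleTg cells. Named genes are the 4 markers, the 30 lists' genes, the 15 highest and lowest ratios, the 10 most abundant and the extreme coefficients and group ratios. Genes named between Tgm4-rich and Msmb-rich cells were chosen after their values were seen. A few members of the lists count in them but their own values are not reported here. The members and the lists were chosen with earlier results of these data known. Gene positions are from GENCODE, promoters from RefSeq (GRCm38.p6). Python 3.11.15, numpy 2.4.6, scipy 1.17.1, pandas 2.3.3 and, for TMM factors, edgeR 4.0.16 were used, and the ratios were checked on simulated counts.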

Additional observations from a re-analysis of the deposited data

How the results depend on the processing

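The rule found 290 cells with Pbsn at 100 or more per 10,000 and 763 at 25 or more. The 365 genes higher than in other epithelial cells became 221 with a minimum of 20 CPM and 3915 with a minimum of 3 UMIs, and the 890 genes lower became 371 and 2428, and 1385 with a mean over cells and 1368 with thinned cells. TMM scaling shifted ratios by 0.02 on the log2 scale. Of 1755 values for the 135 named genes past the fold, 1748 kept their direction and 76 came under the fold. Msmb and the other lobe list turned to -1.48 with Tgm4-rich cells alone. Hba-a1 turned to 0.23 when seminal vesicle and haemoglobin cells were left out of the others (both chosen after the data were seen). Without Krt5 and Krt14 cells among the others, Krt5 turned to 0.29, Krt14 to 1.12, Col17a1 to 0.51 and the basal list to 0.29. Without limits on genes and mitochondria, Ifit3 turned to 0.14 and Cxcl10 to 0.090. The hMETtg share was 50.1% thinned, 51.0% at Pbsn 100 and 55.6% in Tgm4-rich cells, and that of hHGFtg 41.1% thinned and 52.2% in Tgm4-rich cells. TripleTg gave 7 cells at Pbsn 5. Depth limits the rarest genes: Slpi rested on 2 UMIs in Pbsn-high cells, with an interval of its log2 ratio from -7.12 to -3.29. No paired analysis was possible because each genotype is 1 library.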
